A study of Mus musculus with 24 samples.

Results

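The primary (azurophil) granule genes of the neutrophil lineage were followed in mouse leukaemias that carry the MLL-AF9 fusion. The members were the 6 genes Mpo, Elane, Prtn3, Ctsg, Ms4a3 and Prss57, taken by symbol from the deposited count table, 6 of its 24046 genes. All 6 had counts high enough to be tested, and 14099 genes were tested in all. Primary granules are the lysosome-like granules that a myeloid precursor fills at the promyelocyte stage. They carry myeloperoxidase and a family of serine proteases, which are made as inactive precursors, trimmed by cathepsin C and packed onto the proteoglycan serglycin. Their transcription is switched on in granulocyte and monocyte progenitors under C/EBP, MYB, RUNX1 and PU.1 factors and fades as secondary granules form, so their messages mark the promyelocyte-like stage at which many myeloid leukaemias stall.

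RNA was measured in 24 libraries in 8 groups of 3. The labels describe bone marrow leukaemia cells taken from moribund mice, and the controls carried MLL-AF9 and the same Cre as the floxed cells. In the VavCre Arid1b set, Arid1b fl/fl VavCre+ cells were set against Arid1b +/+ VavCre+ cells, and in the VavCre Arid2 set, Arid2 fl/fl VavCre+ cells were set against Arid2 +/+ VavCre+ cells. Arid1b and Arid2 encode subunits of SWI/SNF chromatin remodelling complexes. Vav regulatory sequence drives Cre throughout the blood lineages. The other sets used MxCre, in which an interferon-inducible promoter drives Cre, and their mice, floxed and control alike, were given pIpC, an inducer of interferon, at day 21 after transplantation, in 3 injections of 12.5 µg per g. One of these sets is titled A2 and described by its cell type label as Arid1b, and the other is titled A1b and described as Arid2. They are therefore called the MxCre set titled A2 and the MxCre set titled A1b, each with fl/fl and +/+ cells, and no deleted gene is assigned to them. In the text, floxed means fl/fl and control means +/+. Titles of the VavCre Arid1b set and of both MxCre sets mark the leukaemias as secondary, and those of the VavCre Arid2 set do not. The labels do not tell if the 3 libraries of a group stem from distinct primary leukaemias. The p-values then cover the spread among these samples alone, and how much of it is technical is not known. The floxed group of the VavCre Arid2 set and both groups of the MxCre set titled A1b mixed the sexes, as described later. Their libraries therefore do not all stem from a single leukaemia.

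Library totals ran between 12069153 and 38315410 counts. All 8 markers fixed for myeloid leukaemia cells were detected, among them Ptprc at 394 to 790 CPM (the usual abbreviation for counts relative to library size, here with trimmed-mean scaling). Some libraries stood apart from their group. In floxed library 3 of the MxCre set titled A2, the 10 most abundant genes took 16.6% of counts, against at most 4.77% in any other library, and its 8 erythroid markers summed to 565 CPM. In floxed library 2 of the MxCre set titled A1b, the 10 mature neutrophil markers summed to 21031 CPM. Control library 3 of the VavCre Arid1b set held far more granule message than its partners, as described later. These are the 3 libraries that stand apart, chosen with the granule gene levels known and left out together where the text says so. Floxed library 3 of the VavCre Arid2 set, whose granule genes took 1.17% of counts against 0.33% in each partner, was kept. Calls without the 3 libraries depend on this choice. The Y-linked gene Kdm5d exceeded 10 CPM in 10 libraries: in 0 of 3 floxed and 3 of 3 control libraries of the VavCre Arid1b set, in 1 of 3 and 0 of 3 of the VavCre Arid2 set, for the MxCre set titled A2 in 3 of 3 and 0 of 3, and in 1 of 3 and 2 of 3 of the MxCre set titled A1b. In the VavCre Arid1b set and the MxCre set titled A2, the sex of the cells and the floxed allele therefore cannot be told apart.

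The proximal promoters of the members are shown first because 5 of the 6 genes varied together across the libraries. RefSeq start sites on GRCm38.p6 were found for Mpo, Elane, Prtn3, Ctsg and Ms4a3, and each window covers the 150 bases before the start, read 5′ to 3′ on the strand of the gene. The windows are chr11:87793634-87793783 (plus strand) for Mpo, chr10:79886162-79886311 (plus strand) for Elane, chr10:79879517-79879666 (plus strand) for Prtn3, chr14:56102575-56102724 (minus strand) for Ctsg and chr19:11640852-11641001 (minus strand) for Ms4a3. Capitals mark matches, on either strand, to the ETS-type core AGGAAG, the MYB-type core AACNG and the C/EBP half-site GCAAT, motifs that were chosen after the sequences were seen.
Mpo: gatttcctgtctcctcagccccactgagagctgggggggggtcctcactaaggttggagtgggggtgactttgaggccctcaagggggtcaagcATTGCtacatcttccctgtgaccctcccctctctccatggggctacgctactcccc
Elane: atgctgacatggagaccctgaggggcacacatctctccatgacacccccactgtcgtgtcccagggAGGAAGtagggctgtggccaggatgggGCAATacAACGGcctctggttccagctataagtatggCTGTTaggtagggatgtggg
Prtn3: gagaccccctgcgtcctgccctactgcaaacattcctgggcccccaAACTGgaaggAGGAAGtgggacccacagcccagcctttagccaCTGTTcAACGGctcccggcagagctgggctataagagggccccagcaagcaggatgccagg
Ctsg: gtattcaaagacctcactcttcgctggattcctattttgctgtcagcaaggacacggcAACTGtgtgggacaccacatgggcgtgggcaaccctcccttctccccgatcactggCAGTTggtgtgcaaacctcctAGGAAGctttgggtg
Ms4a3: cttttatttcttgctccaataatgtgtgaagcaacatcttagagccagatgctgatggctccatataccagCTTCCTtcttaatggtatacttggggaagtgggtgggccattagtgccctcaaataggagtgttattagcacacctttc

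AGGAAG occurred in 4 of these 5 windows, those of Elane, Prtn3, Ctsg and Ms4a3, and in 19.7% of 32817 RefSeq promoters of the same length. AACNG occurred in 3 of the 5, those of Elane, Prtn3 and Ctsg, against 55.1% of all promoters. GCAAT occurred in 2 of the 5, those of Mpo and Elane, against 13.9%. Elane and Prtn3, which lie beside each other on chromosome 10, shared an order of letters: AGGAAG at 84 to 79 bases before the start and AACGG at 50 to 46 in Elane, and AGGAAG at 94 to 89 and AACGG at 55 to 51 in Prtn3. In Elane, GCAAT lay between them, at 57 to 53 bases, and CTGTT, a reverse-strand MYB-type match, nearer the start at 20 to 16. In Prtn3, CTGTT lay between AGGAAG and AACGG, at 61 to 57, and AACTG, another MYB-type match, before AGGAAG at 104 to 100. A match to a few letters describes the window and is not a measured binding site.

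The granule genes were among the most abundant messages of these cells. Per kilobase of exon, Elane, which encodes neutrophil elastase, averaged 2157 RPKM over the 24 libraries and ranked 3 among 13442 tested genes with an exon length. Ctsg, encoding the chymotrypsin-like protease cathepsin G, ranked 22 at 946 RPKM, Mpo, encoding myeloperoxidase, ranked 30 at 823 RPKM, and Prtn3, encoding proteinase 3, ranked 32 at 797 RPKM. Ms4a3, which encodes a tetraspan membrane protein restricted to granulocyte and monocyte progenitors and their offspring, ranked 426 at 97.6 RPKM. Prss57, which encodes neutrophil serine protease 4, a granule protease with trypsin-like specificity for arginine, ranked 1742 at 33.0 RPKM. Together the 6 genes took between 0.208% and 2.21% of a library's counts.

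Their levels varied widely, also between libraries of the same group. Over all 24 libraries, the highest CPM exceeded the lowest by 44.3-fold for Mpo, 55.8-fold for Ms4a3, 11.6-fold for Elane, 9.68-fold for Prss57, 5.76-fold for Prtn3 and 5.44-fold for Ctsg. The largest fold between libraries of 1 group was 17.9 for Mpo, 12.8 for Ms4a3, 7.85 for Prss57, 7.08 for Elane, 5.02 for Ctsg and 2.91 for Prtn3. Within groups, the SD of log2 CPM was 1.47 for Mpo and 1.43 for Ms4a3, wider than in 95.6% and 95.2% of tested genes, whose median was 0.36. It was 0.92 for Elane, 0.81 for Prss57, 0.67 for Ctsg and 0.52 for Prtn3. Group membership held between 27.0% of the variance, for Ctsg, and 55.5%, for Prtn3, against a median of 43.0% over all tested genes. With few libraries a group, some variance lies between groups even where groups do not differ. When the 8 groups were ordered by mean level, the library ranges of all 7 neighbouring pairs overlapped for each of the 6 genes. Neighbours in this order have the closest means, so their overlap does not tell if groups differ. The share over all tested genes was not computed.

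**Figure D1:**
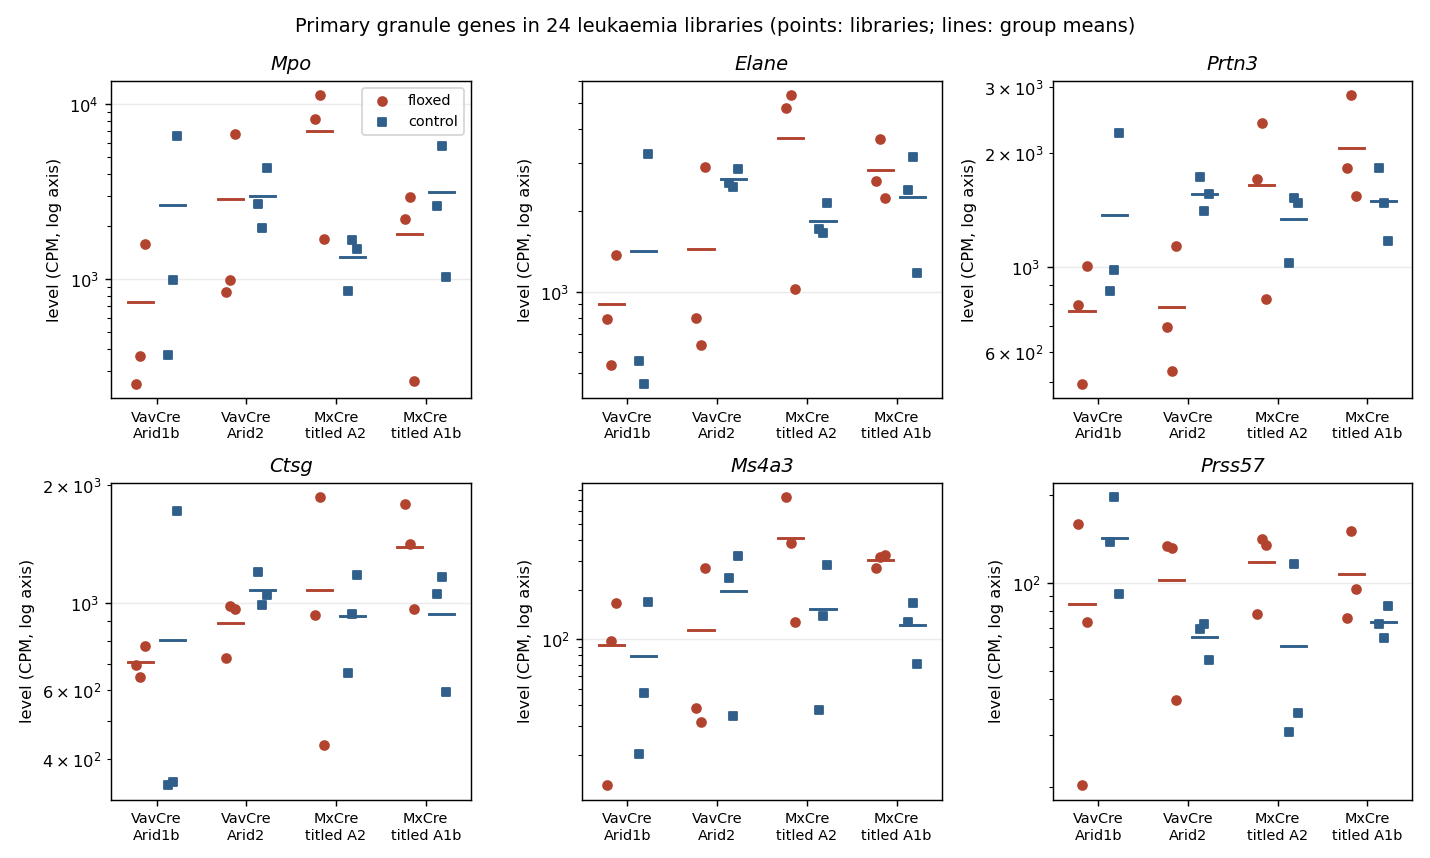
Level of each granule gene (CPM, log axis) in the 4 sets, with floxed libraries as red circles left of control libraries as blue squares and lines at the group means (3 libraries each). Mpo spans 253 to 11198 CPM, and floxed and control libraries overlap on this scale in 20 of the 24 pairs of a gene and a set.

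Mpo supplies the enzyme that turns hydrogen peroxide and chloride into hypochlorous acid. In the VavCre Arid1b set it stood at 253, 362 and 1589 CPM in floxed libraries 1, 3 and 4, against 366, 986 and 6565 CPM in control libraries 1, 2 and 3. In the VavCre Arid2 set it stood at 848, 994 and 6730 CPM in floxed libraries, against 2700, 1970 and 4301 CPM in control libraries. In both sets the groups overlapped, and control library 3 of the first and floxed library 3 of the second held several times the Mpo of their partners. Floxed libraries of the MxCre set titled A2 held Mpo at 8218, 11198 and 1683 CPM, against 859, 1663 and 1480 CPM in control libraries, and each floxed library lay above each control library, floxed library 3 by a margin that depends on the scaling. Those of the MxCre set titled A1b held 2215, 2961 and 260 CPM, against 2623, 5776 and 1022 CPM in control libraries, which overlapped. Over the 8 groups, the mean was highest in floxed libraries of the MxCre set titled A2, 7033 ± 4867 CPM, and lowest in floxed libraries of the VavCre Arid1b set, 735 ± 742 CPM (SD, n = 3 each).

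Elane, whose product cleaves elastin and bacterial outer membrane proteins, followed a similar course on a narrower scale. It stood at 797, 538 and 1372 CPM in floxed libraries of the VavCre Arid1b set, against 554, 458 and 3244 CPM in its controls. It stood at 801, 639 and 2893 CPM in floxed libraries of the VavCre Arid2 set, against 2531, 2454 and 2854 CPM in its controls. The VavCre Arid2 controls lay close together, while floxed library 3 stood above all of them and the other 2 floxed libraries well below. Floxed libraries of the MxCre set titled A2 held 4786, 5328 and 1023 CPM of Elane and control libraries 1703, 1646 and 2137 CPM. Those of the MxCre set titled A1b held 2569, 3673 and 2217 CPM and control libraries 2381, 3168 and 1180 CPM. Floxed and control libraries overlapped in all 4 sets.

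Prtn3, whose product is the target of autoantibodies in human vasculitis, was the steadiest member within groups. It stood at 797, 494 and 1007 CPM in floxed libraries of the VavCre Arid1b set, against 865, 984 and 2266 CPM in controls, an overlap of 1 floxed library with 2 control libraries. It stood at 696, 532 and 1136 CPM in floxed libraries of the VavCre Arid2 set, against 1726, 1409 and 1562 CPM in controls, with each floxed library below each control library. In the MxCre sets the groups overlapped. Floxed libraries of the set titled A2 held 1707, 2408 and 826 CPM and its controls 1025, 1526 and 1475 CPM. Floxed libraries of the set titled A1b held 1824, 2842 and 1546 CPM and its controls 1830, 1482 and 1173 CPM.

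Ctsg stood at 696, 647 and 777 CPM in floxed libraries of the VavCre Arid1b set, against 343, 349 and 1721 CPM in controls, so the floxed libraries lay between the control extremes. In the VavCre Arid2 set it stood at 726, 982 and 964 CPM in floxed libraries, against 1203, 990 and 1047 CPM in controls, and the floxed libraries were all lower, the nearest pair being 982 CPM in a floxed and 990 CPM in a control library. Floxed libraries of the MxCre set titled A2 held 934, 1866 and 435 CPM, against 662, 937 and 1180 CPM in controls. Those of the MxCre set titled A1b held 1791, 1412 and 966 CPM, against 1058, 1164 and 594 CPM in controls. Both MxCre sets overlapped.

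Ms4a3, which is also used as a lineage marker of granulocyte and monocyte progenitors in mice, reached its lowest and highest values in floxed libraries. It stood at 13, 98.0 and 167 CPM in floxed libraries of the VavCre Arid1b set, against 20.3, 47.3 and 169 CPM in controls. It stood at 38.2, 31.4 and 271 CPM in floxed libraries of the VavCre Arid2 set, against 235, 34.3 and 319 CPM in controls. These groups overlapped, and each group held a library at several times the level of another. Ms4a3 reached 727, 383 and 127 CPM in floxed libraries of the MxCre set titled A2, against 37.4, 139 and 281 CPM in controls. In the MxCre set titled A1b it stood at 270, 315 and 326 CPM in floxed libraries, against 127, 166 and 71.2 CPM in controls, with each floxed library above each control library.

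Prss57 did not follow the others. It stood at 159, 20.2 and 73.4 CPM in floxed libraries of the VavCre Arid1b set, against 137, 196 and 91.4 CPM in controls, and at 134, 132 and 39.6 CPM in floxed libraries of the VavCre Arid2 set, against 69.1, 72.1 and 54.4 CPM in controls. Under MxCre, in the set titled A2, it stood at 78.0, 141 and 135 CPM in floxed libraries, against 30.8, 115 and 35.9 CPM in controls. In the MxCre set titled A1b it stood at 75.7, 149.7 and 95 CPM in floxed libraries, against 72.3, 64.8 and 82.8 CPM in controls. The groups overlapped in all 4 sets. Its values need care: on the mouse annotation GENCODE M21, the last part of Prss57 and that of Fstl3, a secreted activin-binding protein gene on the other strand, share 1157 exon bases, 40.7% of the exon bases of Prss57 and 47.3% of those of Fstl3. The strand setting of the counting is not given in the sources used here, so reads of both genes cannot be told apart in the shared stretch.

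For loss of Arid1b under VavCre, the granule genes gave no call. In edgeR's quasi-likelihood test with Benjamini-Hochberg adjustment over all tested genes, 0 of the 6 members passed an adjusted p of 0.05, where 6.57% of all 14099 genes did. None had an unadjusted p under 0.05 either (24% of all genes did). DESeq2 called 0 members and 12.9% of all genes. Limma voom with sample weights called 29.8% of all genes and 2 members, Prss57 at -1.50 and Ctsg at 0.94, of which Ctsg was opposite in sign to the edgeR estimate. The log2 fold change of floxed over control was -1.84 ± 1.09 (SE) for Mpo, with a 95% interval of -4.14 to 0.45 and an adjusted p of 0.325. Prtn3 came nearest to a call, at -0.84 ± 0.40 with an interval of -1.69 to 0.01 and an adjusted p of 0.212. Elane stood at -0.65 (adjusted p = 0.610), Prss57 at -0.75 (adjusted p = 0.472), Ctsg at -0.19 (adjusted p = 0.863) and Ms4a3 at 0.23 (adjusted p = 0.915). The median over the members was -0.70, beside -0.06 over all tested genes, with 5 members lower and 1 higher, and floxed and control libraries overlapped for all 6, where 16.1% of all genes lay entirely lower and 16.3% entirely higher in floxed libraries.

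Without control library 3, whose 6 granule genes all lay above their own 24-library mean, the estimates changed sign to 0.15 for Mpo, 0.87 for Elane and 1.06 for Ctsg, and Ms4a3 changed sign without control library 1, control library 2 or floxed library 4, at -0.22, -0.03 and -0.50. Markers of monocytes and macrophages, 9 of 10 in the table, moved with the comparison: their summed level ran between 3131 and 5193 CPM in floxed libraries and between 443 and 1198 CPM in controls. The 8 markers of eosinophils, basophils and mast cells summed to between 105 and 224 CPM in floxed libraries, against 41.6 to 1201 CPM in controls. Their part in the members' values was not tested. In bulk RNA, fewer granule-forming cells and less granule message per cell cannot be told apart.

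For loss of Arid2 under VavCre, Elane, Prtn3 and Ctsg were lower in most floxed libraries and again no member was called. In edgeR's test 0 of 6 passed, beside 1.31% of all genes, and 1 of 6 had an unadjusted p under 0.05, beside 19.5% of all genes. DESeq2 called 0 members and 7.77% of all genes, and limma voom with sample weights 2 members, Prtn3 and Elane, and 33.2% of all genes. Prtn3 averaged 788 ± 312 CPM in floxed libraries and 1566 ± 159 CPM in controls (SD, n = 3 each), a log2 fold change of -0.99 ± 0.41 (SE) with a 95% interval of -1.84 to -0.14, an unadjusted p of 0.0245 and an adjusted p of 0.189 by edgeR. Leaving out the 3 libraries that stand apart, all in other sets, gave Prtn3 a log2 fold change of -0.98 and an adjusted p of 0.0487 in the same edgeR test, a call, where 7.99% of all genes were called. Elane stood at -0.86 ± 0.70 with an interval of -2.32 to 0.61 (adjusted p = 0.529), and Ctsg at -0.28 (adjusted p = 0.808). Ms4a3 stood at -0.79 (adjusted p = 0.710), Mpo at -0.07 (adjusted p = 0.981) and Prss57 at 0.64 (adjusted p = 0.587).

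Of the 6 members, Prtn3 and Ctsg had all floxed libraries below all control libraries, where 18.2% of all tested genes lay entirely lower and 17.9% entirely higher. The members' median log2 fold change was -0.53, beside 0.00 over all genes. The sign of Mpo turned to 0.29 without control library 3, to 0.37 without floxed library 1 and to 0.34 without floxed library 2. The 10 mature neutrophil markers summed to between 194 and 942 CPM in floxed libraries, against 4062 to 9431 CPM in controls, and the 9 monocyte and macrophage markers to between 2751 and 4284 CPM, against 1144 to 2451 CPM. The part of these cells in the members' values was not tested.

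In the MxCre set titled A2, all 6 members had higher means in floxed libraries, and 0 of 6 were called by edgeR, where 0.0284% of all genes were. One member, Mpo, had an unadjusted p under 0.05, beside 10.6% of all genes. DESeq2 called 0 members and 1.39% of all genes, and limma voom with sample weights 0 members and 8.67% of all genes. Mpo averaged 7033 ± 4867 CPM in floxed libraries and 1334 ± 422 CPM in controls (SD, n = 3 each). Its log2 fold change was 2.40 ± 1.12 (SE) with a 95% interval of 0.06 to 4.74 and an adjusted p of 0.458. It was the 1 member of 6 whose groups did not overlap, where 7.18% of all genes lay entirely higher and 7.78% entirely lower in floxed libraries. When scaled by total counts alone its groups overlapped, with floxed library 3 at 1484 CPM, against 1735 and 1495 CPM in control libraries 2 and 3. Ms4a3 stood at 1.44 ± 1.02 (adjusted p = 0.671), Elane at 1.02 ± 0.70 (adjusted p = 0.655) and Prss57 at 0.96 (adjusted p = 0.610). Prtn3 stood at 0.30 (adjusted p = 0.857) and Ctsg at 0.22 (adjusted p = 0.926), and these turned to -0.082 and -0.43 without floxed library 2, the library with the most granule message of all 24. The members' median was 0.99, beside 0.02 over all genes. The 9 monocyte and macrophage markers summed to between 234 and 1966 CPM in floxed libraries, against 1650.5 to 3773 CPM in controls, the 8 eosinophil, basophil and mast cell markers to between 24.96 and 443.6 CPM, against 60.0 to 149.9 CPM, and the 8 erythroid markers to between 3.13 and 565 CPM, against 3.83 to 7.19 CPM. Their part in the members' values was not tested.

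In the MxCre set titled A1b, 5 members had a positive estimate and Mpo a negative one, and edgeR called 0 of 6, where it called 0.00709% of all genes. None had an unadjusted p under 0.05, beside 17.4% of all genes. DESeq2 called 0 members and 3.39% of all genes, and limma voom with sample weights 0 members and 0.0851% of all genes. Ms4a3 averaged 304 ± 29.6 CPM in floxed libraries and 121 ± 47.8 CPM in controls (SD, n = 3 each), a log2 fold change of 1.32 ± 1.02 (SE) with a 95% interval of -0.82 to 3.46 and an adjusted p of 0.520. It was the 1 member of 6 whose groups did not overlap, where 6.55% of all genes lay entirely higher and 7.55% entirely lower. Ctsg stood at 0.57 (adjusted p = 0.600), Prss57 at 0.54 (adjusted p = 0.667), Prtn3 at 0.47 (adjusted p = 0.567) and Elane at 0.33 (adjusted p = 0.837). Mpo stood at -0.79 ± 1.07 with an interval of -3.03 to 1.44 (adjusted p = 0.736), and came to -0.0037 without control library 2 and to -0.28 without floxed library 3. In floxed library 3 Mpo was at 260 CPM while Elane was at 2217 CPM, a count ratio of 0.117, the lowest of the 24, the next being 0.317 in floxed library 1 of the VavCre Arid1b set and the median 1.06. The mature neutrophil markers summed to between 2373 and 21031 CPM in floxed libraries, against 202 to 6515 CPM in controls, and the erythroid markers to between 3.24 and 375 CPM, against 2.21 to 50.02 CPM. Their part in the members' values was not tested.

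**Figure D2:**
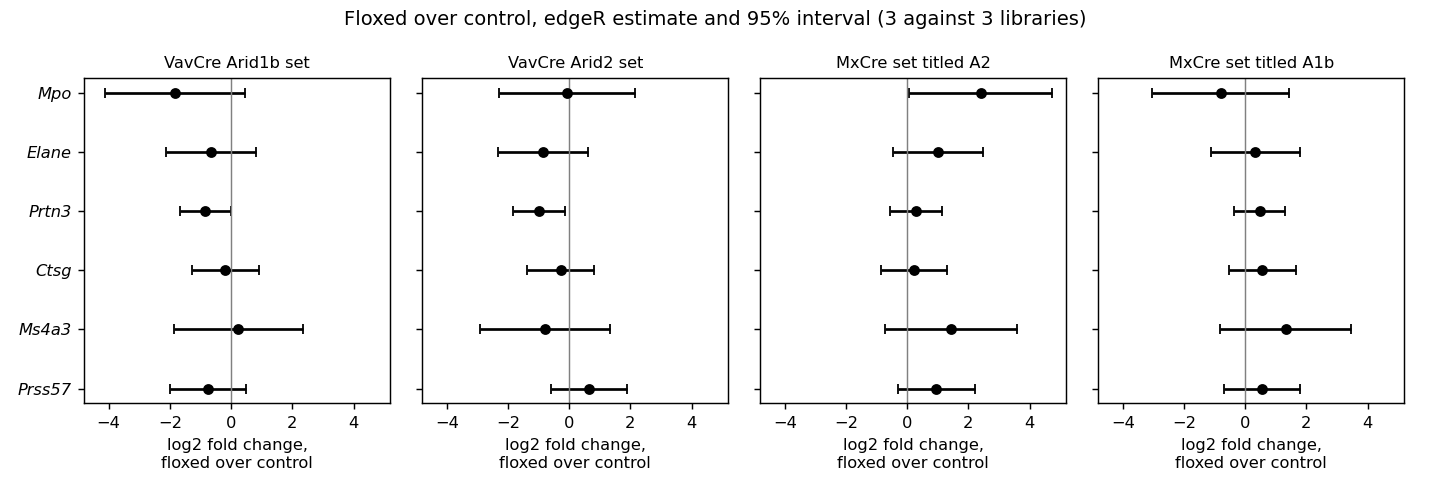
Log2 fold change of floxed over control (points, edgeR estimates; bars, 95% intervals) for each granule gene in the 4 sets, 3 against 3 libraries each. The interval includes 0 in 22 of the 24 comparisons, the exceptions being Prtn3 in the VavCre Arid2 set and Mpo in the MxCre set titled A2, and no comparison had an adjusted p under 0.189.

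The floxed effect was also compared between sets, since a call in one set and none in another is not a difference. Of 36 differences (6 members by 6 pairs of sets), edgeR called 0, and 4 had an unadjusted p under 0.05. DESeq2 called 1, in a difference where it called 13.5% of all genes. Limma voom with sample weights called 6: 2 between the VavCre sets (17.7% of all genes called), 1 between the VavCre Arid1b set and the MxCre set titled A2 (33.4%) and 3 between the VavCre Arid2 set and the MxCre set titled A2 (34%). Without the 3 libraries that stand apart, edgeR called 2, Prtn3 and Elane, both between the VavCre Arid2 set and the MxCre set titled A2, where it called 13.9% of all genes. Of all genes, an unadjusted p under 0.05 was reached by 9.85% between the VavCre sets, by 25.2% and 19.7% between the VavCre Arid1b set and the MxCre sets titled A2 and A1b, by 18.6% and 22.6% between the VavCre Arid2 set and the MxCre sets titled A2 and A1b, and by 17.6% between the MxCre sets. The largest of the 4 was for Mpo, whose log2 fold change in the VavCre Arid1b set minus that in the MxCre set titled A2 was -4.24 ± 1.56 (SE), with an adjusted p of 0.0985 by edgeR, where 7.35% of all genes were called. It was the difference that DESeq2 called. The other 3 were all for Prtn3, lower in a VavCre set than in an MxCre set: -1.31 for the VavCre Arid1b set minus the MxCre set titled A1b (adjusted p = 0.216, 0.745% of all genes called), -1.29 for the VavCre Arid2 set minus the MxCre set titled A2 (adjusted p = 0.240, 0.489% called), and -1.46 for the VavCre Arid2 set minus the MxCre set titled A1b (adjusted p = 0.147, 1.5% called). Between the VavCre sets 0.0142% of all genes were called, and between the MxCre sets 0.192%. These 6 differences share sets, so they are not independent of each other.

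No granule gene passed the test between the control groups. In edgeR's F test over the 4 control groups, 0 of 6 members were called, beside 0.0922% of all genes. By that test 0 had an unadjusted p under 0.05, beside 11.5% of all genes. DESeq2 called 0 members and 2.46% of all genes. Limma voom with sample weights called 2, Ctsg and Elane, where it called 35.4% of all genes. The control means of Prtn3 lay between 1342 CPM and 1566 CPM, those of Ctsg between 804 and 1079.9 CPM. The same test over all 8 groups called 0 of 6, beside 7.98% of all genes, and Prtn3 was the 1 member with an unadjusted p under 0.05, beside 29.2% of all genes (adjusted p = 0.129 by edgeR). Without the 3 libraries that stand apart, edgeR called 3 members there, Prtn3, Ctsg and Elane, beside 22.1% of all genes. DESeq2 called 1 member there, Prtn3, beside 27% of all genes, and limma voom with sample weights all 6, where it called 75.9% of all genes. Cre, pIpC and set cannot be told apart between the VavCre and MxCre controls. The VavCre Arid2 set is also the only set whose titles do not mark the leukaemias as secondary.

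The granule genes other than Prss57 varied together across libraries although with all 24 libraries edgeR called none between groups. Elane and Prtn3 were most alike, with a Pearson r of 0.87 and a Spearman rho of 0.85 in log2 CPM over 24 libraries (permutation p = 1e-05 for each, the smallest that 100000 permutations can give, two-sided). Elane and Ctsg followed, with r = 0.80 and rho = 0.77, and Mpo and Elane, with r = 0.78 and rho = 0.87. All 10 pairs among Mpo, Elane, Prtn3, Ctsg and Ms4a3 had r between 0.60 and 0.87 and rho between 0.59 and 0.87, with permutation p adjusted over the 15 pairs of members of at most 0.0028 for r and 0.0046 for rho. The permutations shuffled all 24 libraries without regard to group or set, so p takes the libraries as independent. Libraries of a group may share a primary leukaemia, and r within groups was given no p. Within groups, r ran between 0.52 and 0.91, and after leaving out the 2 libraries farthest from the median of the first gene of each pair, between 0.50 and 0.88. Over all pairs of 11607 genes with a mean of at least 2 CPM, the median r was -0.00 and 1.74% of pairs reached 0.7.

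Prss57 stood outside this pattern. Its 5 pairs with the other members had r between -0.25 and 0.10 and rho between -0.21 and -0.04, with adjusted permutation p of at least 0.33 for r and 0.44 for rho. The mean of the members' centred log2 CPM was lowest in floxed library 3 of the VavCre Arid1b set, at -1.33, and highest in floxed library 2 of the MxCre set titled A2, at 1.47. Control library 3 of the VavCre Arid1b set stood at 0.89, its partners at -1.26 and -0.74. Within the shared course, single genes parted. The ratio of Mpo to Elane counts ran between 0.117 and 2.33, that of Elane to Prtn3 between 0.466 and 2.80, and that of Ms4a3 to Ctsg between 0.0187 and 0.779.

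**Figure D3:**
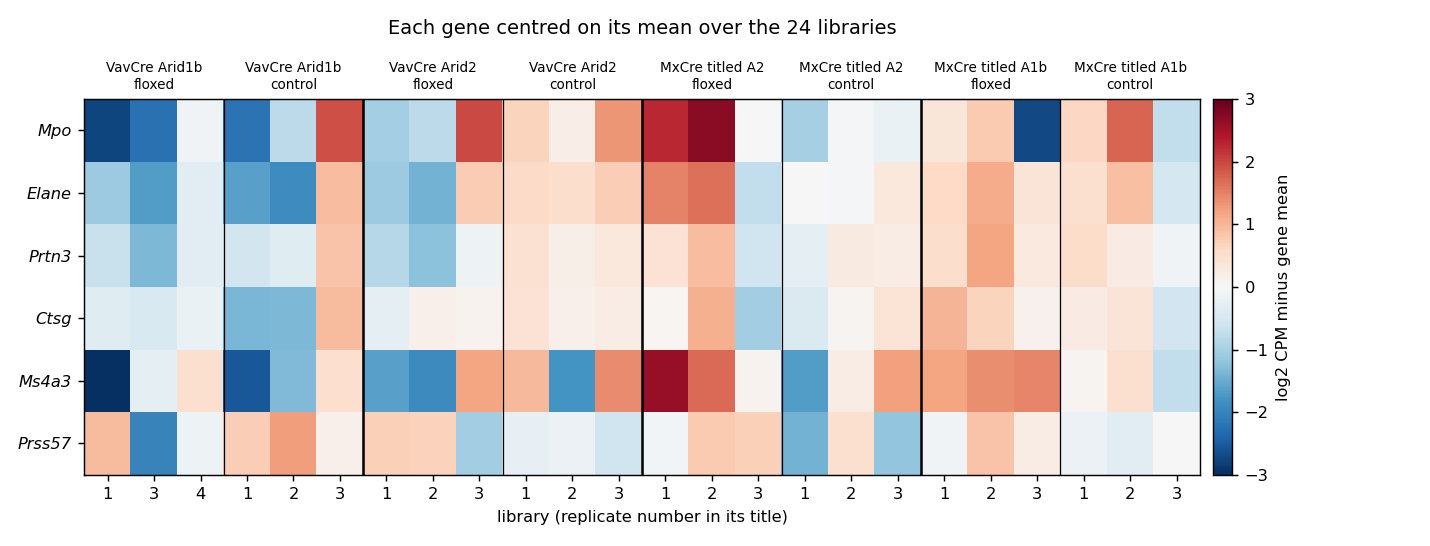
Log2 CPM of each granule gene minus its mean over the 24 libraries, colour scale in log2 units, with libraries grouped by set, floxed left of control. Columns are mostly of 1 colour for the upper 5 genes, floxed libraries 1 and 2 of the MxCre set titled A2 being the reddest and floxed library 3 of the MxCre set titled A1b low for Mpo alone, while the Prss57 row runs apart.

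The members lie in gene clusters, and some of their neighbours followed them at very low levels. Elane and Prtn3 are 3137 bases apart on chromosome 10. Cfd, the gene of complement factor D, which lies 2636 bases beyond Elane, followed Elane with r = 0.77 and rho = 0.79 (adjusted permutation p = 6e-05 for r, over 10 neighbour relations) at a median of 1.00 CPM. Lpo, the lactoperoxidase gene 2015 bases beyond Mpo on chromosome 11, followed Mpo with r = 0.83 and rho = 0.83 at a median of 0.362 CPM, 364 counts over 24 libraries. Ms4a2, the beta chain gene of the IgE receptor of mast cells and basophils, followed Ms4a3 with r = 0.86 and rho = 0.79 at a median of 1.76 CPM on chromosome 19. These neighbours held at most 0.136, 0.0657 and 3.48 counts per 100 counts of Elane, Mpo and Ms4a3.

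Ptbp1, which lies on the other side of Prtn3 from Elane, and the neighbours of Ctsg were less like those members. Ptbp1, a splicing regulator gene 15231 bases from Prtn3, had r = 0.05 with it, and Gzmb, the granzyme B gene, had r = 0.07 with Ctsg. Gzmb lies 156261 bases from Ctsg and was the nearest tested gene on its side of chromosome 14. Mcpt8, a basophil protease gene on the other side of Ctsg, had r = 0.52 but rho = 0.26 (adjusted permutation p = 0.29), and r was 0.11 without the 2 libraries farthest from the median of Ctsg, so the relation rests on them. Oosp1 had r = 0.39 with Ms4a3, and Mir142b r = -0.47 with Mpo (adjusted permutation p = 0.031). Fstl3, which shares exon bases with Prss57, followed it almost exactly, with r = 0.97 and rho = 0.96, r = 0.98 within groups, and between 20.8 and 35.8 Fstl3 counts per 100 Prss57 counts. Palm, a membrane phosphoprotein gene on the other side of Prss57, had r = 0.85 with it and 137.8 to 495.4 counts per 100. The RefSeq spans of Palm and Prss57 overlap at their start sites, a gap of -1113 bases, on opposite strands, while their GENCODE M21 genes share 0 bases. Where the RefSeq models overlap, reads of these genes too cannot be told apart.

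**Figure D4:**
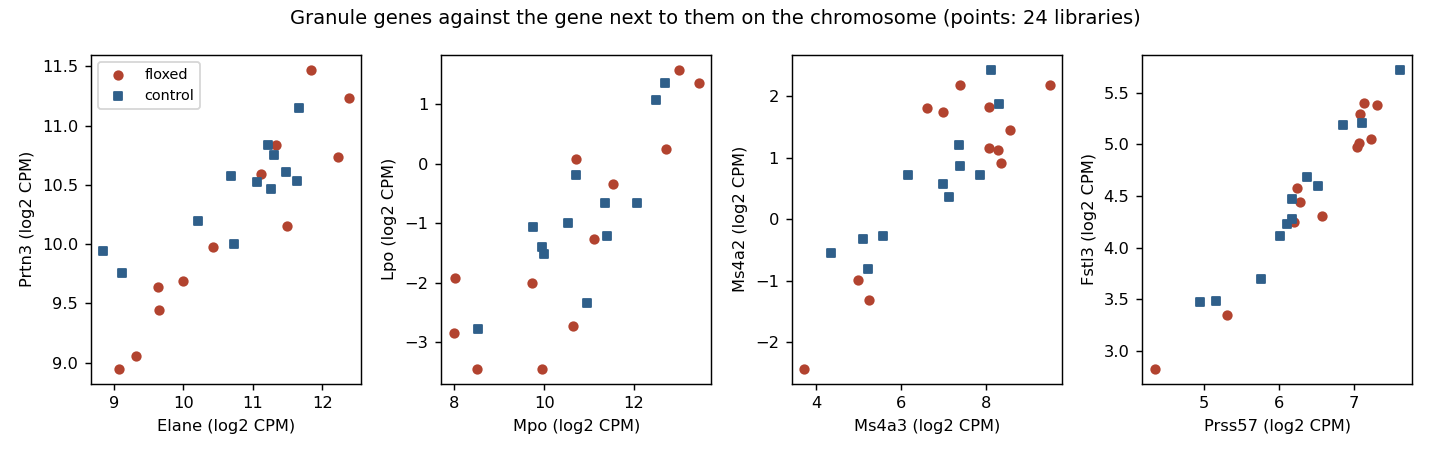
Level of a neighbouring gene against a granule gene (log2 CPM, both axes) in 24 libraries, floxed red circles and control blue squares, for Prtn3 against Elane, Lpo against Mpo, Ms4a2 against Ms4a3 and Fstl3 against Prss57. The 4 relations have r of 0.87, 0.83, 0.86 and 0.97, and floxed and control points are mixed along each.

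Genes with the course most like the members' mean were then ranked by Pearson r over the 24 libraries, as a description, among 10784 genes with a mean of at least 2 CPM, after leaving out the members and genes with predicted or small RNA symbols. The 8 most alike were Cables1 (r = 0.87), Tmem180 (0.84), Rpia (0.81), Ahr (0.81), Tnfsf13 (0.79), Rexo2 (0.78), Comtd1 (0.78) and Scp2 (0.78). Cables1 encodes a cyclin-dependent kinase substrate and ran between 0.162 and 32.2 CPM. Ahr encodes the aryl hydrocarbon receptor, and Rpia an enzyme of the pentose phosphate pathway. The 4 least alike were Tspyl3 (r = -0.84), Ppp1r13b (-0.82), Fbrs (-0.81) and Srgap3 (-0.81). Over all tested genes, 8.96% had r of at least 0.5 and 9.41% of at most -0.5.

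Of the genes that process, pack or restrain granule proteases, 3 of 12 had r of at least 0.5 with the members' mean. Serpinb1a, whose product inhibits elastase, proteinase 3 and cathepsin G, had r = 0.75, Srgn, the serglycin gene, r = 0.68, and Cd63, a tetraspanin of the granule membrane that helps sort elastase, r = 0.52. Ctsc, which encodes the protease that activates the granule proteases, had r = -0.25. In this list, 2 of 12 genes fell in the VavCre Arid1b set, where 3.05% of all genes were called lower, 2 of 12 in the VavCre Arid2 set, where 1.06% were, and 0 in the MxCre sets by edgeR, and none rose. Cd63 averaged 61.0 ± 13.9 CPM in floxed and 392 ± 69.9 CPM in control libraries of the VavCre Arid1b set (SD, n = 3 each), a log2 fold change of -2.69 (adjusted p = 0.00177), and 125 ± 34.6 against 407 ± 85.6 CPM in the VavCre Arid2 set, at -1.71 (adjusted p = 0.0150). Srgn fell in the VavCre Arid2 set, at 432 ± 154 CPM in floxed and 986 ± 117 CPM in control libraries, -1.19 on the log2 scale (adjusted p = 0.0356). Calr, the gene of the chaperone calreticulin, which binds the myeloperoxidase precursor, stood at -0.78 in the VavCre Arid1b set (adjusted p = 0.0467). The median of the list was -0.11, -0.06, -0.01 and 0.23 in the VavCre Arid1b set, the VavCre Arid2 set and the MxCre sets titled A2 and A1b, beside -0.06, 0.00, 0.02 and 0.01 over all genes. In the MxCre sets the smallest p belonged to Cd63 in the set titled A2, at 394 ± 126 CPM in floxed and 214 ± 70.6 CPM in control libraries (0.88, adjusted p = 0.316), and to Srgn in the set titled A1b, at 969 ± 93.5 and 623 ± 109 CPM (0.64, adjusted p = 0.222).

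Transcription factors of the granule genes moved in the VavCre Arid1b set in both directions. Of 12, Cebpa and Klf4 rose and Cebpe and Gfi1 fell there, where 3.52% of all genes were called higher and 3.05% lower, and 0 were called in each of the other sets. The list's median was 0.40 there, -0.19 under VavCre for Arid2, and -0.10 and -0.08 in the MxCre sets titled A2 and A1b. Gfi1, a repressor needed for neutrophil commitment, averaged 48.3 ± 15.1 CPM in floxed and 233 ± 98.6 CPM in control libraries (-2.27, adjusted p = 0.0443). Cebpe, which drives the later secondary granule genes, averaged 42.8 ± 9.14 and 158 ± 78.6 CPM (-1.89, adjusted p = 0.0261). Cebpa, which opens granulocyte and monocyte commitment, averaged 206 ± 30.5 and 102 ± 28.2 CPM (1.01, adjusted p = 0.0175), and Klf4, a factor of monocyte fate, 124 ± 68.9 and 6.86 ± 4.75 CPM (4.18, adjusted p = 0.0217). Over the 24 libraries Gfi1 followed the members' mean with r = 0.68, Cebpb with 0.61 and Cebpd with 0.56, while Cebpe had r = 0.31, Cebpa 0.10, Myb -0.13, Irf8 -0.48 and Gfi1b -0.66. In the VavCre Arid2 set Gfi1 stood at 83.7 ± 38.9 CPM in floxed and 318 ± 18.5 CPM in control libraries, without a call (-1.93, adjusted p = 0.119).

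Of 12 other genes of the promyelocyte stage, 1 fell in the VavCre Arid1b set, where 3.05% of all genes were called lower. It was Rgcc, a cell cycle regulator, at 16.6 ± 3.4 CPM in floxed and 54.2 ± 32.2 CPM in control libraries (-1.71, adjusted p = 0.0359). In the other sets 0 were called. The list's medians were -0.02, -0.25, 0.09 and 0.28 in the same order of sets. Igsf6, an immunoglobulin superfamily gene of myeloid cells, had r = 0.64 with the members' mean and Gstm1, a glutathione transferase gene, r = 0.58. Of 15 secondary and tertiary granule genes, made later in neutrophil maturation, 1 rose in the VavCre Arid1b set and 1 fell in the VavCre Arid2 set. Of all genes, 3.52% were called higher in the VavCre Arid1b set and 1.06% lower in the VavCre Arid2 set. Cybb, the gene that rose, encodes a membrane subunit of the phagocyte oxidase that monocytes also express, and stood at 859 ± 442 CPM in floxed and 104 ± 77.8 CPM in control libraries (3.05, adjusted p = 0.0451). Mmp9, the gelatinase B gene, stood at 8.13 ± 5.05 CPM in floxed and 249.96 ± 181 CPM in control libraries of the VavCre Arid2 set (-4.94, adjusted p = 0.0192). The list's median log2 fold change there was -1.91, where Ngp, the neutrophilic granule protein gene, averaged 110.4 ± 73.9 CPM in floxed and 2325 ± 636 CPM in control libraries with no call (-4.40, adjusted p = 0.0909). Its median was -0.38 in the VavCre Arid1b set, 0.60 in the MxCre set titled A2 and 0.94 in the MxCre set titled A1b. Ltf, Ngp and Cd177 had r of 0.54, 0.52 and 0.52 with the members' mean.

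Where a list had no call in a set, the genes with the smallest p are given as estimates. In the VavCre Arid2 set they were Igsf6 at -0.81 (adjusted p = 0.157) and Bpi, the gene of a bactericidal granule protein, at -1.74 (adjusted p = 0.178) among promyelocyte genes. Gfi1b, a factor of red cell and platelet precursors, stood at 3.52 there (adjusted p = 0.178), and among cluster genes Ms4a1, the CD20 gene of B cells, at -3.51 (adjusted p = 0.110) and Cfd at -1.60 (adjusted p = 0.223). The MxCre set titled A2 had Canx at 0.28 (adjusted p = 0.559), Igsf6 at 0.71 (adjusted p = 0.412), Clec12a at -0.65 (adjusted p = 0.550), Klf4 at -2.10 (adjusted p = 0.425) and Gfi1 at 1.29 (adjusted p = 0.483). It also had Chil3 at -2.31 (adjusted p = 0.464), Cd177 at 0.86 (adjusted p = 0.536), Ms4a1 at 3.09 (adjusted p = 0.297) and Gzmb at 1.35 (adjusted p = 0.559). The MxCre set titled A1b had Ap3b1 at -0.27 (adjusted p = 0.379), Fcnb at 2.61 (adjusted p = 0.310), Lyz1 at -1.95 (adjusted p = 0.493) and Spi1 at 0.50 (adjusted p = 0.186). Runx1 averaged 77.6 ± 22.6 CPM in its floxed and 159.9 ± 55.4 CPM in its control libraries (-1.04, adjusted p = 0.156). Chil3 stood at 2.81 (adjusted p = 0.204), S100a8 at 2.43 (adjusted p = 0.249), Mcpt8 at 1.29 (adjusted p = 0.280) and Gzmb at 1.01 (adjusted p = 0.504).

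The family members in the same gene clusters gave 1 call among 13 tested of 16, a fall of Gzmb in the VavCre Arid1b set. There 3.05% of all genes were called lower. Gzmb stood at 0.266 ± 0.0672 CPM in floxed and 2.61 ± 1.26 CPM in control libraries (-3.26, adjusted p = 0.0300). The list's medians were 0.99, 0.18, 0.31 and 0.04. Gzmc, Gzmn and Cma1 had 34, 2 and 19 counts over all libraries and were not tested. Of the 12 calls of list genes within sets, only Cd63 in the VavCre Arid1b set was called by edgeR with each of the set's 6 libraries left out in turn, while each of the other 11 was called in 3 or fewer of the 6. With a term for the Kdm5d-positive libraries, 3 of the 12 were called, Cd63 in both VavCre sets and Mmp9 in the VavCre Arid2 set. In the VavCre Arid1b set, sex and the floxed allele cannot be told apart, so the term there rests on libraries of other sets. These checks were chosen after the data were seen. The rise of Cybb and Klf4 stood in the set whose monocyte and macrophage markers summed to 3131 to 5193 CPM in floxed libraries, against 443 to 1198 CPM in controls, and the fall of Mmp9 in the set whose mature neutrophil markers summed to 194 to 942 CPM, against 4062 to 9431 CPM, sums that hold Klf4 and Mmp9 themselves. The part of those cells was not tested.

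**Figure D5:**
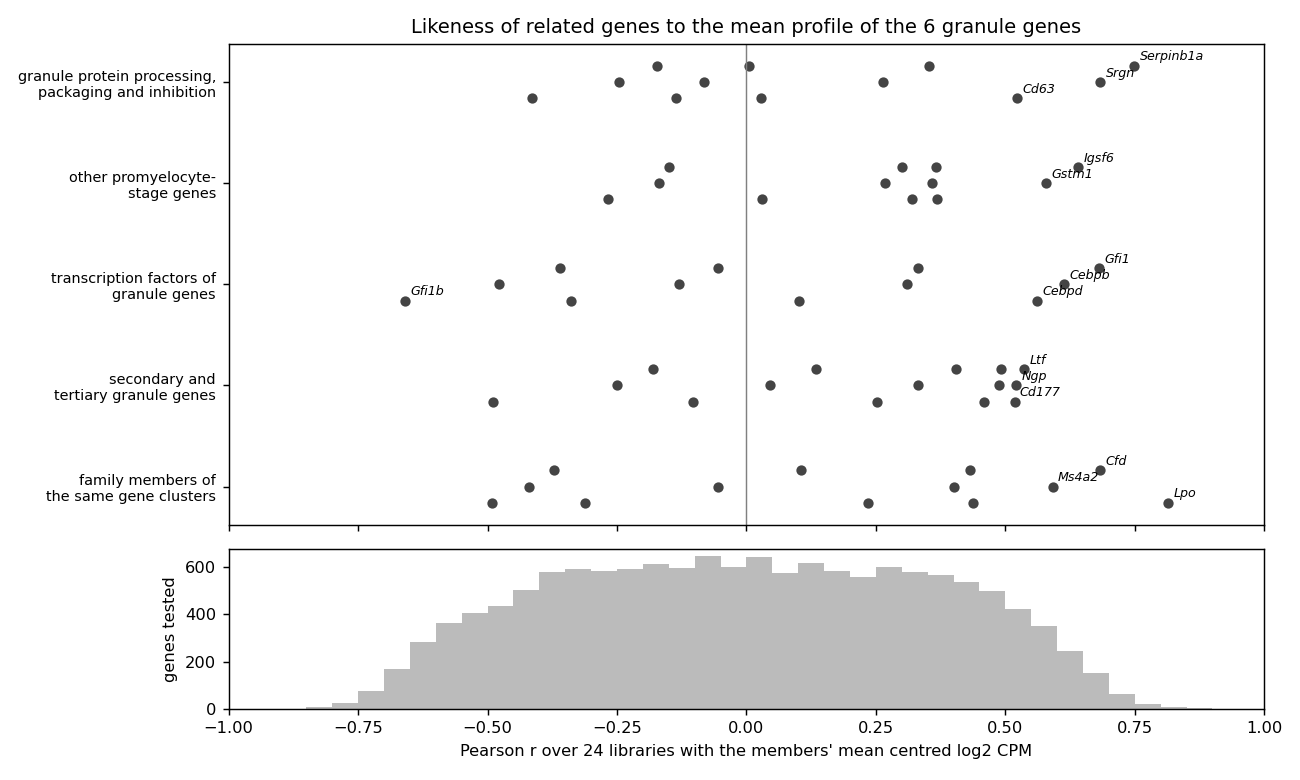
Pearson r over 24 libraries between each related gene and the mean centred log2 CPM of the 6 granule genes, by list (upper panel; named where r is at least 0.5 or at most -0.5), and the same r for all tested genes (lower panel, number of genes per bin). Lpo, Serpinb1a, Srgn, Cfd and Gfi1 lie farthest to the right, with r of 0.68 to 0.81, and Gfi1b farthest to the left, at -0.66.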

How the data were processed

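RNA-seq counts of 24 mouse leukaemia libraries were used. The authors deposited raw counts of reads for each gene symbol, with STAR and mm10 named in the submitters' processing notes. The counter, annotation, strand setting and tool versions are not given here by any label or header. Libraries were placed in groups by title, and 0 columns were left unused. The members and lists were chosen with earlier results of these data known.

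Counts were fitted with edgeR 4.0.16 in R 4.3.3 (filterByExpr, minimum count 10 and total 15, trimmed-mean scaling, robust quasi-likelihood, 8 group means, 16 residual degrees of freedom, common biological coefficient of variation 0.4), after tests on simulated data. Adjusted p-values are Benjamini-Hochberg over 14099 genes per contrast. Of 24046 genes, 2194 had no read. The 24-library totals of 12069153 to 38315410 counts make counting error small for all members. CPM uses the scaled library sizes, and RPKM uses GENCODE M21 exon lengths. Log2 CPM for correlations had a prior count of 2. Correlations used 100000 permutations of all libraries, without regard to group, two-sided. Promoters and positions are RefSeq's, GRCm38.p6, the assembly of mm10. Library pairs of each group differed beyond sampling noise (lowest median chi-square 2.90, 0.455 expected). Beside the 6 members, list genes were named when called in a set, up to 5, or otherwise up to 2 by smallest p, with the nearest tested neighbours and the 8 most and 4 least alike genes, and others named by their r were chosen after their values were seen. Alternatives used DESeq2 1.42.0, limma 3.58.1 voom with sample weights, other scaling, no filter, own libraries, fewer libraries, a Kdm5d term and a replicate block. The Kdm5d term is estimated only from groups that mix the sexes.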

Additional observations from a re-analysis of the deposited data

Results flagged for a closer look

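With all 24 libraries, edgeR called 0 of 36 differences of the granule genes between sets, 4 of them at an unadjusted p under 0.05, while DESeq2 called 1 and limma voom with sample weights 6. Those calls came where DESeq2 called 13.5% and limma voom between 17.7% and 34% of all genes. Genes of the related lists were called by edgeR's test of the difference of log2 fold changes (floxed over control) with Benjamini-Hochberg adjustment over all tested genes, and each is given because its difference passed that test. Between the VavCre Arid1b set and the MxCre set titled A2, the granule membrane gene Cd63 stood at -2.69 and 0.88, a difference of -3.57 (adjusted p = 0.00137). Klf4 stood at 4.18 and -2.10, a difference of 6.27 (adjusted p = 0.0135), and Cebpa at 1.01 and -0.38, a difference of 1.39 (adjusted p = 0.0186). Gzmb stood at -3.26 and 1.35, a difference of -4.62 (adjusted p = 0.0229), Cebpe at -1.89 and 0.78, a difference of -2.67 (adjusted p = 0.0233), and Gfi1 at -2.27 and 1.29, a difference of -3.56 (adjusted p = 0.0264). Cybb stood at 3.05 and -1.05, a difference of 4.10 (adjusted p = 0.0438), Igsf6 at -0.76 and 0.71, a difference of -1.47 (adjusted p = 0.0439), and Lpo at -4.59 and 2.00, a difference of -6.59 (adjusted p = 0.0476). In both of these sets the sexes of the libraries, read from Kdm5d, were opposite between floxed and control, in opposite order.

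Cd63 also differed between the VavCre Arid1b set and the MxCre set titled A1b, at -2.69 and 0.23, a difference of -2.91 (adjusted p = 0.0141). It differed between the VavCre Arid2 set and the MxCre set titled A2, at -1.71 and 0.88, a difference of -2.59 (adjusted p = 0.0236), and between the VavCre Arid2 set and the MxCre set titled A1b, at -1.71 and 0.23, a difference of -1.93 (adjusted p = 0.0381). Between the VavCre Arid2 set and the MxCre set titled A1b, Mmp9 stood at -4.94 and 1.33, a difference of -6.27 (adjusted p = 0.0252), and Srgn at -1.19 and 0.64, a difference of -1.83 (adjusted p = 0.0256). With each of 24 libraries left out in turn, 2 of these 14 differences were called every time, those of Cd63 and Klf4 between the VavCre Arid1b set and the MxCre set titled A2. With a term for the Kdm5d-positive libraries 3 of 14 were called, all for Cd63, and the difference of Klf4 was not. For the VavCre Arid1b set and the MxCre set titled A2, that term rests on libraries of other sets. With the replicate block 0 of 14 were called. With DESeq2 and with limma voom with sample weights all 14 were.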

How the results depend on the processing

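DESeq2 size factors, no filter, the set's own 6 libraries, the Kdm5d term and any 1 library left out gave 0 calls among the 6 members wherever they were run. By limma voom with sample weights, 2 members were called in the VavCre Arid1b set, 2 in the VavCre Arid2 set, 6 among the 36 differences, 2 over the 4 control groups and 6 over the 8 groups. DESeq2 called 1 difference and 1 member over the 8 groups. Without the 3 libraries that stand apart, 1 was called in the VavCre Arid2 set, 2 among the differences and 3 over the 8 groups. Deviations of samples with the same replicate number had r between -0.22 and 0.26, which with 3 libraries a group cannot exclude a pairing. The replicate block called 0 members in every set. It was not fitted for the F tests.

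In the VavCre Arid1b set the log2 fold change turned to 0.48 for Mpo, 0.82 for Elane and 0.94 for Ctsg with voom, and to 0.15, 0.86 and 1.05 without the 3 libraries. Ms4a3 turned to -0.77 with the Kdm5d term and -0.71 with the replicate block. Mpo in the VavCre Arid2 set turned to 0.088 with the Kdm5d term. With 1 library left out, the values ran in the VavCre Arid1b set between -3.10 and 0.15 for Mpo, -1.09 and 0.87 for Elane, -0.55 and 1.06 for Ctsg, and -0.50 and 1.49 for Ms4a3. They ran between -1.70 and 0.37 for Mpo in the VavCre Arid2 set, and between -0.082 and 0.62 for Prtn3 and -0.43 and 0.60 for Ctsg in the MxCre set titled A2. The cause was not tested. Otherwise direction held, in 133 of 144 values with 1 library left out and 183 of 192 others. All 48 group levels moved by less than 1 SD when scaled by total counts alone, but the floxed and control values of Mpo in the MxCre set titled A2 then overlapped.

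The all-gene counts moved with the block, to 1, 3, 1 and 1 calls from 926, 185, 4 and 1 in the VavCre Arid1b, VavCre Arid2, A2-titled and A1b-titled sets, with the Kdm5d term to 101, 104, 0 and 2, with DESeq2 to 1815, 1095, 196 and 478, and with voom to 4203, 4684, 1223 and 12. They were 619, 103, 5 and 0 without the filter, 1061, 1030, 3 and 0 with each set's own libraries, and 937, 1144, 33 and 8 without the 3 libraries. Of 12 list-gene calls within sets, 0 held with the block, 3 with the Kdm5d term, 7 without the filter and 10 without the 3 libraries, an analysis added after the data were seen. All 12 held with DESeq2 and with voom, which also called more of all genes in the VavCre sets. Depth did not limit the 6 members, while Lpo (364 counts in all) rests on few reads.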
